A study of Homo sapiens with 15 samples.

Results

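The genes described here are 34 markers of the T cell lineage, followed in the RNA of T cell exosomes and in human umbilical vein endothelial cells (HUVEC) kept with those exosomes. They were chosen by name, and each was represented by the probeset with exactly 1 gene symbol and the highest mean over 15 Affymetrix whole-transcript gene arrays. All 34 had such a probeset, among 18417 genes that did. The exosomes came from JinB8 (JINB8 in the sample names), a mutant Jurkat line deficient in CD47, or from Jurkat (JK), the CD47-bearing human T cell leukaemia line from which JinB8 derives. Each line is a single leukaemic cell line, and both were grown in medium with human AB serum and then with a low amount of it before exosomes, small vesicles released into the medium, were precipitated. The 5 groups of 3 arrays were RNA of JINB8 exosomes, RNA of JK exosomes, HUVEC after 6 h with exosomes of JINB8 cells, HUVEC after 6 h with those of JK cells, and HUVEC without exosomes. HUVEC are endothelial cells of the umbilical cord vein, labelled as a cell line. The number of arrays limits the precision, and nothing in the labels says that replicates came from separate cultures. The p-values therefore cover only the spread among these arrays, part or all of which may be technical.

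T cells recognise antigen through a receptor of variable chains held together with the CD3 chains, and pass the signal on through the kinases LCK and ZAP70 to the scaffold LAT. Developing T cells in the thymus cut and join the receptor genes with the RAG recombinases, under transcription factors such as GATA3, BCL11B and LEF1, and immature thymocytes carry CD1 molecules on their surface. Jurkat cells are used as a model of receptor signalling. Exosomes carry RNA of the cells that release them, and endothelial cells are known to take up such vesicles.

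The groups differed in their deposited log2 levels. The median over all genes was 5.19 to 5.21 on the JINB8 exosome arrays, 5.17 to 5.22 on the JK exosome arrays, 5.57 to 5.62 and 5.61 to 5.67 in HUVEC with JINB8 and JK exosomes, and 7.41 to 7.44 in untreated HUVEC. The values spread far less in exosome RNA (SD over genes 1.06 to 1.07 for JINB8 and 1.03 to 1.06 for JK) than in HUVEC (1.83 to 2.01). No detection calls were used here, so the 341 olfactory receptor genes, which neither cell type is known for, served as a reference scale on each array, chosen after these levels were seen. Their median was 5.39 to 5.55 on the exosome arrays, above the median of all genes on each. It was 3.24 to 3.51 on treated and 4.97 to 5.53 on untreated HUVEC arrays, below the median of all genes on each. The scale therefore is not a like floor in exosome RNA and in HUVEC. Of all genes, 3.84% to 5.67% lay above the 95th percentile of the olfactory receptor genes on JINB8 exosome arrays, 3.99% to 4.51% on JK exosome arrays, and 58.7% to 68.1% on the 9 HUVEC arrays. The position on this scale is not a detection call, and because probes differ in brightness it does not rank genes by abundance. CD47 averaged 4.73 ± 0.19 in JINB8 and 4.71 ± 0.02 in JK exosome RNA (SD, n = 3 each), below the median of all genes in both, so its level does not check the 2 labels. The endothelial markers, among them PECAM1, CDH5, VWF, ERG and TIE1, were above the olfactory percentile for 24 of 24 genes on each HUVEC array and for 0 to 2 of 24 on each exosome array. Markers of B cells (6 genes), myeloid cells (10) and platelets and erythroid cells (8) had 0 genes above it on each exosome array, with list medians of 4.93 to 5.59, and so did the 39 genes of T cell receptor signalling. The mural and fibroblast list had 1 of 9 above it, COL1A1, on each exosome array. A list of 19 further transcription factors of the T lineage had 3 above it on each exosome array, with list medians of 5.80 to 5.98. On the HUVEC arrays 15 to 16 of these 19 were above it.

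Few T cell lineage genes lay above the olfactory percentile in exosome RNA. On the JINB8 exosome arrays 4 to 7 of the 34 did (11.8% to 20.6%), where 3.84% to 5.67% of all genes did. On the JK exosome arrays 1 to 3 did (2.94% to 8.82%), where 3.99% to 4.51% of all genes did. The counts were 7 to 10 on the arrays of exosome-treated HUVEC and 7 to 8 on those of untreated HUVEC. On the HUVEC arrays these were 20.6% to 29.4% of the members, where 58.7% to 68.1% of all genes lay above the percentile. CD7, an immunoglobulin-family surface protein of early T cells and natural killer cells, lay above it on all 15 arrays. Its log2 signal was 7.89, 7.73 and 7.73 in JINB8 exosome RNA and 7.83, 7.64 and 7.67 in JK exosome RNA, and the groups overlapped. In JINB8 exosome RNA the kinase LCK, the transcription factor LEF1 and the lipid-binding CD1 family member CD1E were above it on 3 of 3 arrays. In JK exosome RNA LCK was above it on 2 of 3 arrays, and LEF1 and CD1E on 0 of 3. CD1D, which presents lipids to natural killer T cells, was above it on 2 of 3 arrays of each exosome group, and CD3D and CD1A on 1 JINB8 array each. The other 27 members were below it on all 6 exosome arrays.

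The members above the olfactory percentile in endothelial cells were mostly others, on arrays where 58.7% to 68.1% of all genes were above it. PTCRA (the pre-T cell receptor alpha chain), CD7, LAT, GATA3 and CD1D were above it on all 9 HUVEC arrays. Among all genes, the mean percent ranks of PTCRA, LAT and CD1D in the HUVEC groups were 42.2 to 50.7, near or below the middle. Those of CD7 were 73.3 to 74.4 and those of GATA3 59.7 to 77.7. The surface receptor CD6 was above the olfactory percentile on all 6 arrays of exosome-treated HUVEC and on 2 of 3 untreated arrays. BCL11B was above it on 2 of 3 arrays with JINB8 and 3 of 3 with JK exosomes. CD5 was above it on 2 of 3 arrays with either, and TRBC1 on 2 of 3 with JK exosomes. These 3 were above it on 0 untreated arrays. CD69, an early activation antigen of lymphocytes, and LCK were above it on the 3 arrays of untreated HUVEC, and LCK on 1 with JK exosomes. GATA3 is also an endothelial transcription factor. Of the CD3 chains, CD3D, CD3E and CD3G were below the percentile on every HUVEC array. In HUVEC given exosomes, T cell transcripts of the endothelial cells and transcripts brought by exosomes cannot be told apart. In all these bulk samples fewer cells or vesicles with a transcript and less of it in each cannot be told apart.

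**Figure D1:**
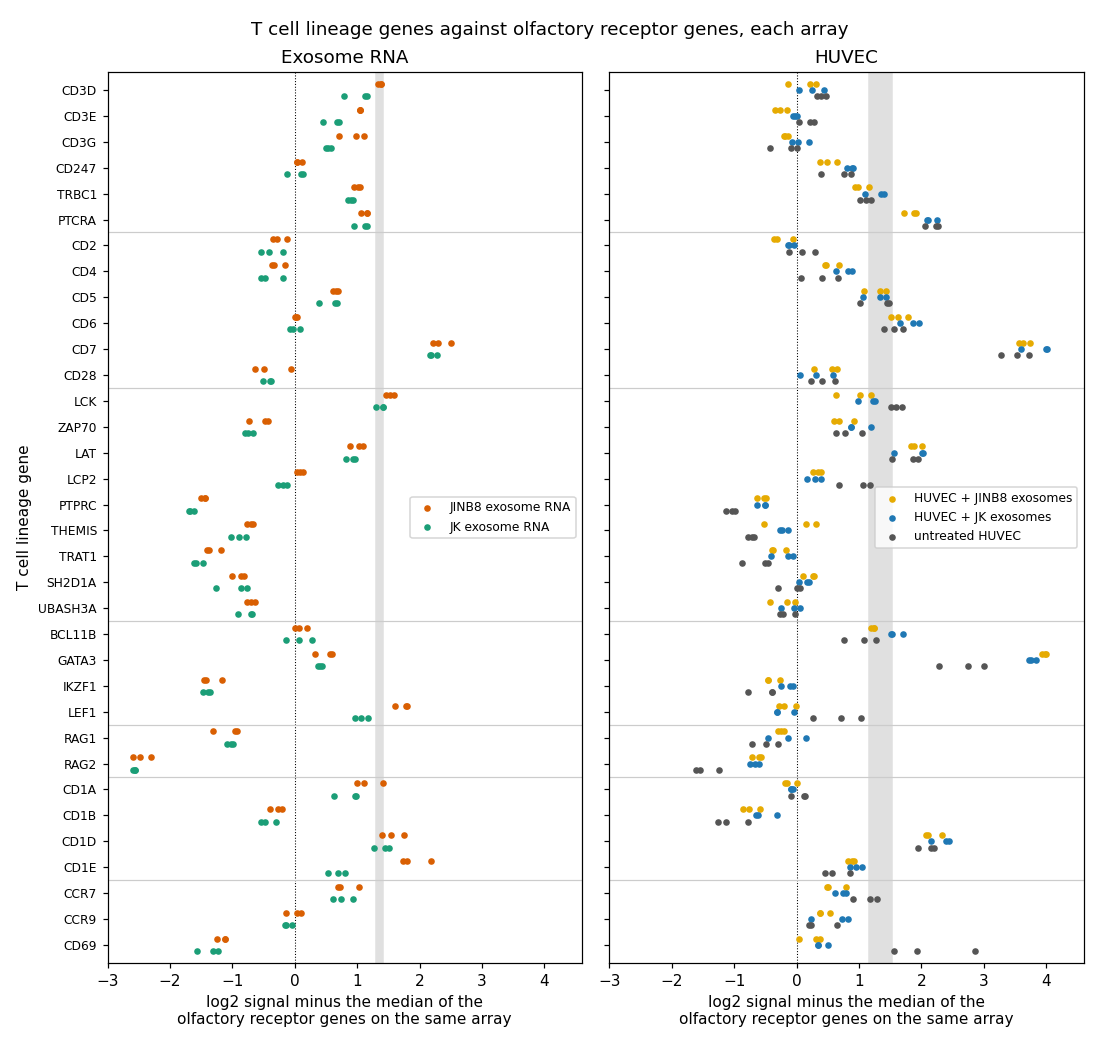
Each point is 1 array: the log2 signal of a T cell lineage gene (rows, ordered by role) minus the median of the 341 olfactory receptor genes on that array (dotted line at 0), with exosome RNA on the left and HUVEC on the right. The grey band spans the 95th percentiles of the olfactory receptor genes over the arrays of a panel. CD1E and LEF1 lie right of the band in JINB8 exosome RNA and left of it in JK exosome RNA, while CD7 lies right of it in both panels.

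The comparison of JINB8 with JK exosome RNA asked which transcripts differed between vesicles of the CD47-deficient line and those of its CD47-bearing parent line. The lack of CD47 and any other difference between these lines cannot be told apart. Of the 34 members 2 passed the test and both were higher in JINB8 exosome RNA: CD1E, 2.24-fold, and LEF1, 1.52-fold. Over all genes 125 of 18417 passed, 0.679% of those tested, 123 of them higher and 2 lower (limma with Benjamini-Hochberg adjustment over all genes and a threshold of 0.05, as in every comparison here). The median log2 difference was 0.06 over the members, 27 of which were above 0, and 0.00 over all genes, 51.3% of which were above 0. The groups did not overlap for 7 members, each higher on every JINB8 array than on any JK array, where 7.35% of all genes were: CD1E, LEF1, CD3D, CD3E, CD3G, LCP2 and PTPRC.

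CD1E, a CD1 protein that stays inside the cell and loads lipids onto other CD1 molecules, had log2 signals of 7.18, 7.26 and 7.61 in JINB8 exosome RNA, against 6.08, 6.29 and 6.19 in JK exosome RNA. The lowest JINB8 array lay well above the highest JK array. The log2 difference was 1.16 ± 0.11 (SE, n = 3 per group, limma adjusted p = 0.000218), the 9th highest of all genes. LEF1, a transcription factor of immature T cells that binds DNA with beta-catenin, had signals of 7.19, 7.13 and 7.21 in JINB8 exosome RNA, against 6.51, 6.65 and 6.55 in JK exosome RNA. These groups did not overlap either, and the replicates lay close together. The log2 difference was 0.61 ± 0.08 (SE, n = 3 per group, limma adjusted p = 0.00187), the 81st highest.

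The promoters of both genes are shown with that of CD3D, another member, so that the start regions can be read side by side. CD3D did not pass the test, though its groups did not overlap. Each run is RefSeq sequence of build GRCh38.p14, 300 bases from 250 before to 50 after a gene's start, read 5′ to 3′ on the gene's strand. CD1E lies at chr1:158353644-158353943 on the plus strand, LEF1 at chr4:108166252-108166551 on the minus strand and CD3D at chr11:118342656-118342955 on the minus strand. Capitals mark the letters CTTTG (a core of TCF/LEF motifs), CANNTG (the E-box), TGTGGT (RUNX) and AGGAAG (ETS), each searched on both strands.
CD1E: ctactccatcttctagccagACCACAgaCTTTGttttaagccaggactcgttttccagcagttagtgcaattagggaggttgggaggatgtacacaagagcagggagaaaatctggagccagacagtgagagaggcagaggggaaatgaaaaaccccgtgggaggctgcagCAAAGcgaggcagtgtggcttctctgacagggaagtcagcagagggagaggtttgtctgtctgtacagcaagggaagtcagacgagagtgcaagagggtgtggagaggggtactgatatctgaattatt
LEF1: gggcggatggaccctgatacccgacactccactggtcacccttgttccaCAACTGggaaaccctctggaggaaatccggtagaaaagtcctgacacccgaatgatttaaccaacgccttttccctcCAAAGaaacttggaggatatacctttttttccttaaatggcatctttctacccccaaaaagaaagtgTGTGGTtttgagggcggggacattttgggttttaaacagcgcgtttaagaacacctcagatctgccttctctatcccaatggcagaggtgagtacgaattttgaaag
CD3D: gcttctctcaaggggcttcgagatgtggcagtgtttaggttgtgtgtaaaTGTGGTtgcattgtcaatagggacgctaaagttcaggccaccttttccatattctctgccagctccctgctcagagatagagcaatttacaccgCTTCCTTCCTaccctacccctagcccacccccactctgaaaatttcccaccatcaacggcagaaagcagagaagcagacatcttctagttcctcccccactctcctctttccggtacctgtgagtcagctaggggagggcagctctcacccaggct
The CD1E run held the TCF/LEF letters at 2 places and the RUNX letters at 1. The LEF1 run held the TCF/LEF, E-box and RUNX letters at 1 place each, and the CD3D run held the RUNX letters at 1 place and the ETS letters at 2 that overlap. RefSeq promoters were matched for 23 of the 34 members, with 39 entries. The TCF/LEF letters stood in 56.4% of these and in 47.5% of all 35116 promoters, the E-box in 66.7% and 68.7%, the RUNX letters in 28.2% and 13.1%, and the ETS letters in 46.2% and 33.6%. Some members have several overlapping entries, a match is a run of letters and not a bound site, and no test was made of these shares.

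The chains of the antigen receptor did not pass the test. CD3D, CD3E and CD3G, the invariant chains that assemble with the receptor, each lay higher on every JINB8 array than on any JK array. CD3E had 6.43, 6.56 and 6.48 in JINB8 exosome RNA and 6.25, 6.15 and 5.95 in JK exosome RNA, a log2 difference of 0.37 ± 0.09 (SE, n = 3 per group, limma adjusted p = 0.112). CD3G had 6.36, 6.22 and 6.54 against 6.12, 5.97 and 6.02 in JK exosome RNA (0.34 ± 0.09, adjusted p = 0.172), and CD3D 6.72, 6.89 and 6.81 against 6.70, 6.60 and 6.28 in JK exosome RNA (0.28 ± 0.10, adjusted p = 0.436). When each array was centred on its olfactory receptor genes, an alternative added after the data were seen, CD3E passed (0.43, adjusted p = 0.0214), while CD3D and CD3G did not. The signalling chain CD247, the receptor constant region TRBC1 and PTCRA differed by -0.04, 0.04 and -0.01, with overlapping groups. TRBC1 shares sequence with the second beta constant gene, so its signal may hold both.

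Among the 9 members of proximal signalling 0 passed, and the 9 differences lay between 0.00 and 0.22. The adaptor LCP2 (SLP-76) and the phosphatase PTPRC (CD45) did not overlap between the groups, with log2 differences of 0.22 ± 0.08 (limma adjusted p = 0.395) and 0.15 ± 0.08 (adjusted p = 0.686). LCK (0.08 ± 0.08), ZAP70 (0.14 ± 0.08) and LAT (0.03 ± 0.07) overlapped, as did THEMIS, which tunes receptor signals during thymic selection, and TRAT1, SH2D1A and UBASH3A, an adaptor of the receptor complex, the SLAM-associated adaptor SAP and a phosphatase-family regulator. The 6 coreceptors and costimulatory receptors, CD2, CD4, CD5, CD6, CD7 and CD28, differed by -0.03 to 0.07, and all 6 overlapped.

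Of the other transcription factors, GATA3, BCL11B and IKZF1 (Ikaros) differed by 0.03, -0.04 and 0.00. The recombinase genes RAG1 and RAG2, which are dim on all 15 arrays, differed by -0.09 and 0.05. CD1A, CD1B and CD1D, the surface CD1 molecules, differed by 0.25 ± 0.12, 0.09 ± 0.09 and 0.09 ± 0.10 without passing, so the difference of CD1E stood beside overlapping groups for the other 3 CD1 genes listed. CCR7 and CCR9, chemokine receptors for homing to lymph nodes and to thymus and gut, differed by -0.01 and 0.05, and CD69 by 0.15 ± 0.09. In the wider lists, 0 of 39 genes of T cell receptor signalling and 0 of 19 further transcription factors of the T lineage passed. The smallest p among these was that of TAL1, a factor that can drive T cell leukaemia, named after its value was seen, with 0.36 ± 0.08 (limma adjusted p = 0.0803). At an unadjusted p under 0.05 there were 3 of 39 and 2 of 19, and 1484 of all 18417 genes (8.06%).

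**Figure D2:**
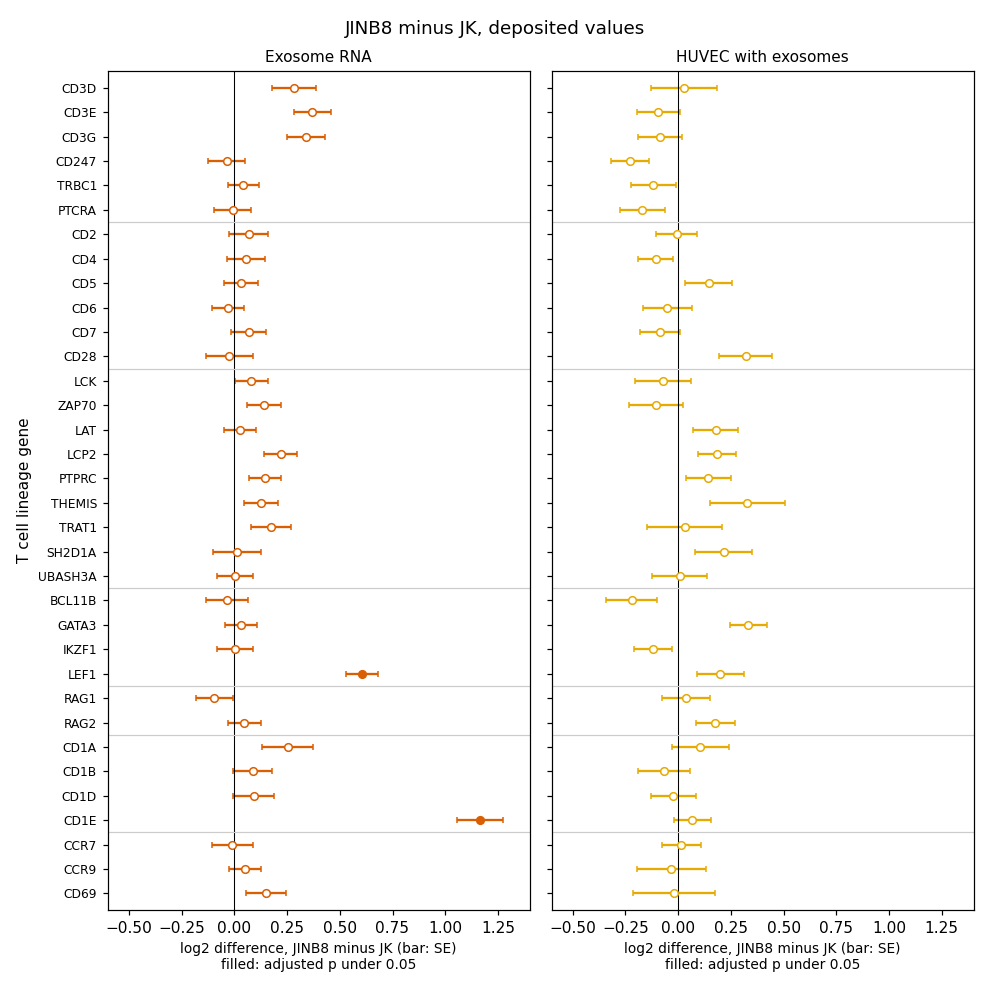
Log2 difference of JINB8 minus JK (points, with bars of 1 SE) for each T cell lineage gene, in exosome RNA on the left and in HUVEC kept with the exosomes on the right, n = 3 arrays per group. Filled points passed at an adjusted p under 0.05 over all genes: CD1E and LEF1 in exosome RNA, and 0 members in HUVEC.

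Exosome RNA was next set against HUVEC kept with exosomes, to see which members distinguish vesicle RNA from endothelial RNA. On the deposited scale 33 of the 34 members were higher in exosome RNA and 1, GATA3, was lower, but 94.9% of all genes differed (8337 higher and 9149 lower), and 339 of the 341 olfactory receptor genes were higher too. Their median log2 difference was 1.89, the members' median 1.35 and that of all genes -0.13. A call upward on this scale therefore stands beside the same call for nearly all of the olfactory receptor genes.

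LEF1, CD1A and CD3D were above the 95th percentile of the olfactory receptor differences (3.07). LEF1 averaged 6.87 ± 0.34 in exosome RNA and 3.20 ± 0.18 in exosome-treated HUVEC (SD, n = 6 each), a log2 difference of 3.67 ± 0.07 (SE, limma adjusted p = 5.53e-18). CD1A, a lipid-presenting molecule of cortical thymocytes and Langerhans cells, averaged 6.49 ± 0.24 in exosome RNA and 3.31 ± 0.09 in exosome-treated HUVEC (3.18 ± 0.08, adjusted p = 4.44e-16). CD3D averaged 6.66 ± 0.21 in exosome RNA and 3.58 ± 0.21 in exosome-treated HUVEC (3.08 ± 0.10, adjusted p = 6.44e-15). In each of these the 6 exosome arrays lay above the 6 HUVEC arrays. These genes were picked by the size of the same difference, so the separation adds no support. Of all genes 45.3% were called higher in exosome RNA, and the share with separate groups was not counted.

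With every array centred on its olfactory receptor genes, 8 of the 34 members were higher in exosome RNA and 24 lower, where 1.46% of all genes (269) were higher and 17776 lower. The median log2 difference of all genes was -2.21 on this scale, since the olfactory receptor genes lie at unlike places among all genes in exosome RNA and HUVEC. The 8 were LEF1 (1.60 ± 0.08), CD1A (1.11 ± 0.08), CD3D (1.00 ± 0.09), CD3E (0.97 ± 0.07), CD3G (0.79 ± 0.08), LCK (0.40 ± 0.09), CD1E (0.38 ± 0.08) and CD1B (0.27 ± 0.08). CCR7 and CD2, the adhesion receptor for CD58, did not pass. Among the 8 are CD3D, CD3E and CD3G, the kinase LCK, and 3 of the 4 CD1 genes among the members. The rest of these roles went the other way. The other antigen receptor members, CD247 (-0.63), TRBC1 (-0.21) and PTCRA (-0.89), were lower in exosome RNA. So was every proximal signalling member but LCK, from LCP2 (-0.37) to ZAP70 (-1.5), and so was CD1D (-0.76). The centred levels of LEF1 and CD1E in this contrast average 2 exosome groups that differed from each other.

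GATA3 was the member lower in exosome RNA on the deposited scale. It had 5.99, 5.85 and 5.99 in JINB8 and 5.91, 5.91 and 5.90 in JK exosome RNA, against 7.45, 7.49 and 7.37 in HUVEC with JINB8 exosomes and 7.07, 7.07 and 7.16 in HUVEC with JK exosomes. Its log2 difference was -1.34 ± 0.05 (SE, n = 6 each, limma adjusted p = 1.22e-13), and it changed sign after quantile normalization (0.069) and cyclic loess (0.51). Of the endothelial markers 22 of 24 were lower in exosome RNA, PECAM1 by a log2 difference of -6.95 ± 0.05 and CDH5 by -6.25 ± 0.06. Of the 39 receptor signalling genes 20 were higher and 19 lower, and of the 19 further transcription factors 10 were higher and 9 lower. Over all genes 94.9% were called in either direction. NOTCH1, a receptor of T lineage and endothelial cell fate, was lower (-3.10), as were the widely expressed genes TCF12 (-3.58), SOS1 (-5.00), a RAS activator, and PLCG1 (-3.22), the phospholipase downstream of LAT.

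**Figure D3:**
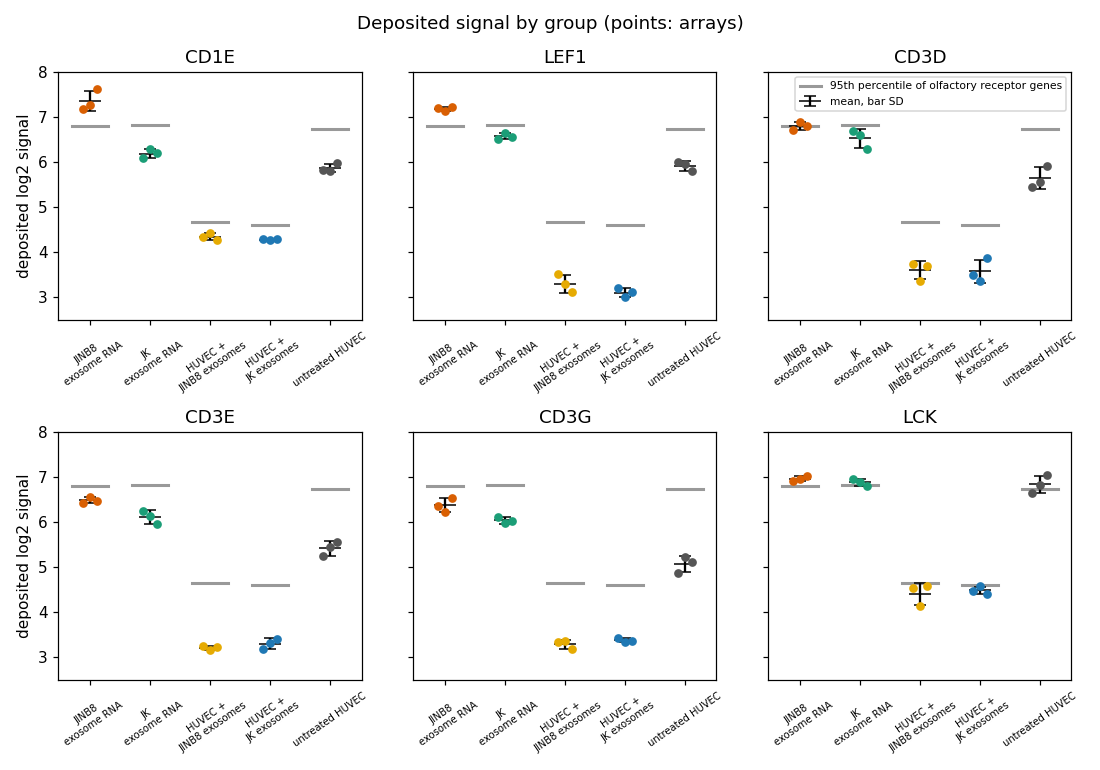
Deposited log2 signal of 6 members in the 5 groups (points are arrays, crosses the mean with a bar of 1 SD, n = 3), with the mean of the group's 95th percentile of the olfactory receptor genes as a grey line. The genes were chosen after their values were seen. CD1E and LEF1 lie above the line in JINB8 exosome RNA alone, and the untreated HUVEC arrays lie on a higher level than the treated ones for all 6 genes.

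Against untreated HUVEC the values were quantile-normalized over the 15 arrays, because the levels of the untreated arrays stood apart. On this scale 32 of 34 members were higher in exosome RNA, CD69 was lower and RAG2 did not pass, beside 91.6% of all genes called and 333 of 341 olfactory receptor genes higher. The members' median log2 difference was 1.81 and that of the olfactory receptor genes 2.17. As deposited, 7 members were higher and 21 lower, so the count rests on the scaling. This comparison shares the exosome arrays with the one before.

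In HUVEC the question was whether T cell lineage genes were higher after 6 h with T cell exosomes than without. Values for this comparison were quantile-normalized over the 9 HUVEC arrays. As deposited, 34 of 34 members were lower in HUVEC with either kind of exosomes than in untreated HUVEC, along with the level of the arrays. Since the untreated arrays stood apart, the array level and the treatment cannot be told apart. On the quantile scale 5 members were higher and 8 lower with JINB8 exosomes, where 49.3% of all genes were called. With JK exosomes 5 were higher and 8 lower, where 48.6% of all genes were called. Both comparisons share the 3 untreated arrays, and the share of members called, 13 of 34, was below that of all genes in each.

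GATA3 was the member with the greatest rise on this scale. It had 7.96, 8.01 and 7.89 with JINB8 exosomes and 7.57, 7.62 and 7.69 with JK exosomes, against 6.76, 6.86 and 6.71 in untreated HUVEC. The log2 difference was 1.18 ± 0.08 with JINB8 exosomes (SE, n = 3 per group, limma adjusted p = 6.97e-07) and 0.85 ± 0.08 with JK exosomes (adjusted p = 7.63e-06). As deposited it was lower in both (-0.49 and -0.82).

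CD69 had the greatest fall. Its values were 4.48, 4.12 and 4.39 with JINB8 exosomes and 4.42, 4.29 and 4.38 with JK exosomes, against 6.62, 5.48 and 6.26 in untreated HUVEC, where it varied most. The log2 difference was -1.79 ± 0.22 with JINB8 (limma adjusted p = 6.04e-05) and -1.76 ± 0.22 with JK exosomes (adjusted p = 7.33e-05).

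Of the 8 members that were higher in exosome RNA after centring, CD1E alone was higher on the quantile scale in HUVEC given exosomes. The 8 were picked partly by low signals on these same treated HUVEC arrays, which favours a fall here. This count therefore cannot test whether vesicle transcripts appear in HUVEC. LEF1 had 4.09, 3.80 and 3.61 with JINB8 exosomes and 3.81, 3.50 and 3.56 with JK exosomes, against 4.77, 4.61 and 4.41 in untreated HUVEC. It fell by 0.76 and 0.98 on the log2 scale with JINB8 and JK exosomes (limma adjusted p = 0.000784 and 0.000151). LCK fell by 0.48 and 0.45, and CD3E by 0.47 and 0.30, with JINB8 and JK exosomes, though the call of CD3E with JK exosomes was lost after olfactory centring (-0.20, adjusted p = 0.342). CD3D and CD3G did not pass in either comparison, with differences between -0.18 and 0.04. All of these lay at or below the olfactory percentile in treated HUVEC, apart from LCK on 1 array with JK exosomes.

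CD1E had 5.03, 5.11 and 4.93 with JINB8 exosomes and 4.95, 4.89 and 4.91 with JK exosomes, against 4.61, 4.48 and 4.58 in untreated HUVEC, and the treated arrays lay above the untreated ones. The log2 difference was 0.46 ± 0.08 with JINB8 (limma adjusted p = 0.000576) and 0.36 ± 0.08 with JK exosomes (adjusted p = 0.00294). As deposited it was lower in both (-1.53 and -1.59), centring on the olfactory receptor genes ended both calls (adjusted p = 0.26 and 0.136), and median centring ended the call with JK exosomes (adjusted p = 0.102).

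Of the remaining members, BCL11B, a factor of T lineage commitment, rose by 0.41 ± 0.11 with JINB8 and 0.57 ± 0.11 with JK exosomes, and the coreceptor CD4 by 0.32 ± 0.08 and 0.41 ± 0.08. With JINB8 exosomes BCL11B did not pass after median centring (0.25, limma adjusted p = 0.101) or olfactory centring (0.19, adjusted p = 0.411). CD4 did not pass after olfactory centring with JINB8 (0.16, adjusted p = 0.504) or JK exosomes (0.41, adjusted p = 0.0729). LCP2 fell by 0.45 and 0.65, CD2 by 0.40 and 0.34 and CCR7 by 0.31 and 0.35, again with JINB8 and JK exosomes. After olfactory centring CD2 passed with neither (-0.34 and -0.19), and the call of CCR7 with JK exosomes was lost (-0.41, adjusted p = 0.063), as was its call with JINB8 exosomes in the 15-array fit (-0.27, adjusted p = 0.0619). SH2D1A (0.30) and PTCRA (-0.28) passed with JINB8 exosomes, and CD247 (0.24) and CD1A (-0.28) with JK exosomes. These 4 calls lay near the threshold. That of PTCRA (adjusted p = 0.0491) was lost without any 1 of 8 of the 9 arrays (-0.33 to -0.19), the JK-treated arrays outside its contrast among them (-0.28 without each), and that of SH2D1A without JINB8-treated replicate 2 or 3 or untreated replicate 1 or 2 (0.26, 0.31, 0.28 and 0.20). The 4 calls were also lost after olfactory centring and in the 15-array fit, those of PTCRA (-0.25) and SH2D1A (0.21) with JINB8 exosomes and that of CD247 (0.13) with cyclic loess, and those of CD247 (0.058) and CD1A (-0.26) with median centring. That of CD247 was lost without any 1 of the JK-treated arrays or untreated replicate 3 (0.25, 0.23, 0.23 and 0.20), and that of CD1A without JK-treated replicate 1 or 2 or untreated replicate 3 (-0.26, -0.27 and -0.17). Over all genes 49.3% were called in either direction with JINB8 and 48.6% with JK exosomes, and the counts of the wider lists stand beside these shares. Of the 39 receptor signalling genes 11 were higher and 9 lower with JINB8 exosomes, and 11 and 11 with JK exosomes. The kinases TEC (0.86 and 0.88) and FYN (0.81 and 0.65) were higher and the coreceptor CD8A (-0.75 and -0.70) was lower with JINB8 and JK exosomes. Of the 19 further transcription factors 5 rose and 5 fell with JINB8, and 5 rose and 7 fell with JK exosomes, TOX by -1.47 and -1.61 and SATB1 by 1.34 and 1.25.

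**Figure D4:**
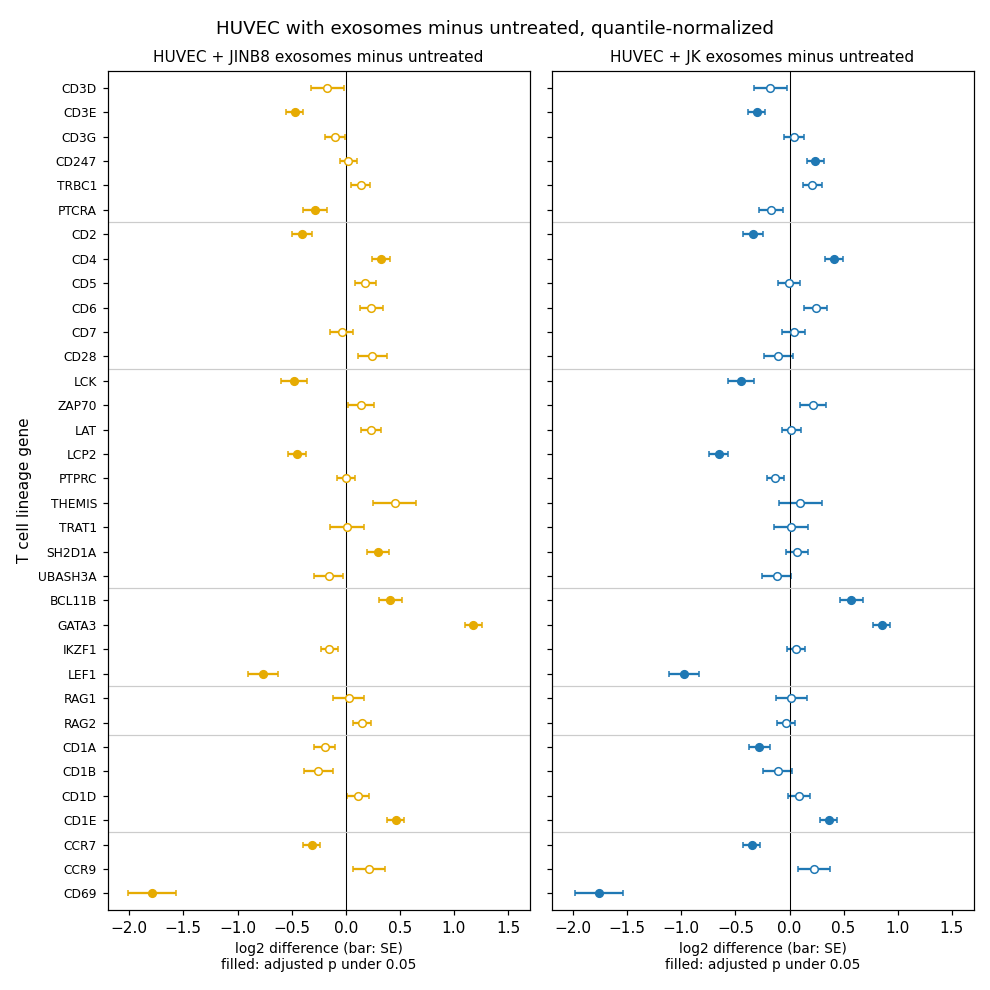
Log2 difference of HUVEC with JINB8 exosomes (left) or JK exosomes (right) minus untreated HUVEC for each T cell lineage gene, after quantile normalization of the 9 HUVEC arrays (bars 1 SE, n = 3 per group). Filled points passed at an adjusted p under 0.05 over all genes; GATA3 lies farthest right and CD69 farthest left in both panels, and the panels share the untreated arrays.

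HUVEC with JINB8 exosomes were then set directly against HUVEC with JK exosomes. None of the 34 members passed, and 0 of 18417 genes did (0%, limma, smallest adjusted p = 0.0644), while 3 members and 1678 genes had an unadjusted p under 0.05. With array weights 377 genes passed. The groups did not overlap for 8 members, against 17.5% of all genes: GATA3, LCP2, PTPRC, SH2D1A and RAG2 were higher and CD247, BCL11B and IKZF1 lower on every JINB8-treated array than on any JK-treated array. GATA3 differed by 0.33 ± 0.09 (SE, n = 3 per group, limma adjusted p = 0.276) and passed with array weights (0.37, adjusted p = 0.0302), CD28, the main costimulatory receptor, by 0.32 ± 0.13 (adjusted p = 0.479) and CD247 by -0.23 ± 0.09 (adjusted p = 0.485). CD1E had 4.34, 4.41 and 4.27 with JINB8 exosomes and 4.28, 4.26 and 4.28 with JK exosomes, as deposited. These groups overlapped, with a log2 difference of 0.07 ± 0.09 (adjusted p = 0.855), and LEF1 differed by 0.20 ± 0.11 (adjusted p = 0.629).

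Whether the JINB8 minus JK difference was itself different between exosome RNA and the HUVEC given those exosomes was tested as an interaction over 12 arrays. CD1E passed as 1 of 34 members, with a log2 value of 1.10 ± 0.14 (SE, limma adjusted p = 0.00185), where 0.787% of all genes were called. LEF1 did not pass (0.40 ± 0.14, adjusted p = 0.223), nor did CD3E (0.46 ± 0.13, adjusted p = 0.121) and CD3G (0.43 ± 0.13, adjusted p = 0.148). CD3E passed after quantile normalization (0.72, adjusted p = 0.0318), and CD3E, CD3G and LEF1 passed when arrays were centred on the olfactory receptor genes (0.66, 0.62 and 0.60). The direction was the same for these 4 genes on each of these scales.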

How the data were processed

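RNA of 15 samples in 5 groups of 3 was labelled from 300 ng of total RNA each, per the labels' protocols. The deposited table holds 1 log2 value per probeset and array, made with Affymetrix Expression Console per the submitters' processing notes. The program's version, the background correction, the normalization and which arrays shared it are not stated there, and the log2 scale was read from the values. Of 33297 probesets 19460 had exactly 1 symbol in the platform annotation, which can be old, and gave 18417 genes, each by its probeset of highest mean.

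Contrasts were fitted with limma 3.58.1 in R 4.3.3 (lmFit and eBayes), with p-values adjusted by Benjamini-Hochberg over all genes and a threshold of 0.05. The JINB8 and JK exosome RNA comparison used 6 arrays, exosome RNA against treated HUVEC and the interaction 12 arrays, and JINB8-treated against JK-treated HUVEC 9 arrays, all as deposited. Comparisons with untreated HUVEC used quantile-normalized values. An exact permutation test of 3 against 3 arrays cannot give a p below 0.1. The fits were tested on simulated data, apart from exosome RNA against untreated HUVEC, JINB8-treated against untreated HUVEC and the interaction. Those data held independent noise and no shift between array levels, and were not scaled, so the scaling was not tested. The members and the other gene lists were chosen with earlier results of these data known, and each member is named. Of the other lists, the genes named are among the 4 with the smallest p of those called, besides the named endothelial genes.

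Alternatives were other normalizations, a filter on the 40% dimmest genes, the mean of probesets, a variance trend, array weights, a block for the replicate number, other sets of arrays, an unadjusted p with a 1.5-fold change, and leaving out each array. Centring on the olfactory receptor genes was added after the data were seen. Promoter sequences are from RefSeq, GRCh38.p14.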

Additional observations from a re-analysis of the deposited data

Results flagged for a closer look

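CD1E stood out because its JINB8 minus JK difference was not the same in exosome RNA and in the HUVEC kept with those exosomes. The difference between both differences was 1.10 on the log2 scale (SE 0.14, limma adjusted p = 0.00185), from 1.16 in exosome RNA, higher in 3 of 3 JINB8 arrays than in any JK array, and 0.07 in treated HUVEC, where the groups overlapped. Over the alternatives it lay between 1.04 and 1.65, and without single arrays between 0.97 and 1.18. CD1E lay above the 95th percentile of the olfactory receptor genes on 3 of 3 JINB8 exosome arrays and on 0 of the 9 HUVEC arrays. The part of its dim signal in HUVEC in this difference was not tested.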

How the results depend on the processing

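The 2 member calls between JINB8 and JK exosome RNA (2 higher, 0 lower) held under 11 alternatives each and without each of the 6 arrays, with CD1E between 1.10 and 1.22 (1.03 to 1.25 without single arrays) and LEF1 between 0.56 and 0.66 (0.58 to 0.65). Not all of these alternatives could change the outcome. CD1E and LEF1 each had 1 probeset, so the mean of probesets left their values as they were. The unadjusted p with a 1.5-fold change had to keep both calls. Over all genes the comparison of JINB8 with JK exosome RNA called 54 to 242 instead of 125. The 1 member called in the interaction held too, with 2 members after quantile normalization and 4 after centring on the olfactory receptor genes. Array weights called 1 member between JINB8-treated and JK-treated HUVEC, where the other fits called 0. Of the 13 calls with JK exosomes, 10 held under every setting but the deposited values, the unadjusted p with a fold change, olfactory centring and the filter, and 9 of 13 did with JINB8 exosomes. With olfactory centring counted too, 6 of 13 held in each: LCK, LCP2, GATA3, LEF1 and CD69 in both, CD3E with JINB8 and BCL11B with JK exosomes.

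For exosome RNA against treated HUVEC, quantile normalization left 0 members lower (GATA3 0.069), cyclic loess 2 (GATA3 turned to 0.51, ZAP70 to -0.12, RAG2 to -0.15 and CD69 to -0.17), and the filter 11 higher. Centring on the olfactory receptor genes gave 8 higher and 24 lower and a member median of -0.73. It turned CD247 (-0.63), TRBC1 (-0.21), PTCRA (-0.89), CD2 (-0.14), CD4 (-1.01), CD5 (-0.68), CD6 (-1.73), CD7 (-1.48), CD28 (-0.82), ZAP70 (-1.5), LAT (-0.93), LCP2 (-0.37), PTPRC (-1.01), THEMIS (-0.69), TRAT1 (-1.18), SH2D1A (-1.10), UBASH3A (-0.59), BCL11B (-1.32), IKZF1 (-1.12), RAG1 (-0.85), RAG2 (-1.86), CD1D (-0.76), CCR9 (-0.57) and CD69 (-1.58). Against untreated HUVEC, deposited values gave 7 higher, 21 lower and a median of -0.39, the filter 14 and 0, and olfactory centring 7, 24 and -0.62.

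Against untreated HUVEC the deposited values gave 0 members higher and 34 lower with either exosomes. With JINB8 exosomes CD4 (-1.61), SH2D1A (-1.49), BCL11B (-1.59), GATA3 (-0.49) and CD1E (-1.53) turned, and with JK exosomes CD247 (-1.73), CD4 (-1.51), BCL11B (-1.37), GATA3 (-0.82) and CD1E (-1.59). With JINB8 exosomes median centring gave 9 higher, cyclic loess 8, the filter 2 higher and 1 lower, and an unadjusted p with a 1.5-fold change 1 higher and 2 lower. With JK exosomes the filter gave 1 higher and 0 lower, the unadjusted p 1 higher and 3 lower, and olfactory centring 4 lower. The filter tests fewer members, since most are dim; the cause of the other shifts was not tested.

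The replicate number as a block kept each count of members (2 higher in JINB8 exosome RNA, with 104 genes called, 5 higher and 8 lower with either exosomes in HUVEC, 1 in the interaction). Of 30 pairs of arrays that share a number, deviations from the group means correlated between -0.45 and 0.35, and 1 pair was over 0.1. Pairs with unlike numbers were not compared, so these values cannot decide whether the numbers pair the samples. Signals near those of the olfactory receptor genes limit every value for the dim members.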
